A study of Mus musculus with 10 samples.

Results

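The 8 genes described here code for odorant receptors that have served as models of smell: P2 (Olfr17), M71 (Olfr151), M72 (Olfr160), I7 (Olfr2), mOR-EG (Olfr73), MOR23 (Olfr16), Olfr78 and the muscone receptor MOR215-1 (Olfr1440). They were picked by name, and all 8 are listed among the 24421 genes of the authors' deposited table, which holds 1107 odorant receptor genes with a symbol of Olfr and a number. Olfactory epithelium of untreated mice on a C57BL/6 background, 6 months of age, was profiled by poly(A) RNA sequencing in 4 Apoe3 and 6 Apoe4 biological replicates, which carry different human alleles of the apolipoprotein E gene according to the series title. The labels give neither sex nor the construct that carries the allele, and they do not say whether the mouse Apoe gene was replaced. The deposited table gives 1 mean over all 10 libraries and 1 fold change per gene, so values per library are not shown here.

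An odorant receptor is a membrane protein of the cilia of olfactory sensory neurons, and each mature neuron expresses a single receptor gene from a single allele. Neurons that chose the same receptor send their axons to the same few glomeruli of the olfactory bulb, a rule worked out largely with tagged alleles of P2, M71 and M72. In RNA from whole tissue the level of a receptor therefore depends on how many neurons chose it and on how much RNA each of them holds, and these cannot be told apart here. I7 responds to aldehydes such as octanal, mOR-EG to eugenol, MOR23 to lyral, M71 and M72 to acetophenone, and MOR215-1 to muscone. Olfr78 is a class I receptor for short-chain acids, and is also known from the carotid body, kidney and blood vessels. P2 is best known from the tracing of its axons.

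The coding sequences of 5 of the receptors are shown first at a place that odorant receptors share, the start of the second intracellular loop, with the conserved Asp-Arg-Tyr codons in capitals. The strands are read from 5′ to 3′ in GENCODE vM21 transcripts of GRCm38, from chr7:107097818-107097856 (plus strand) for P2, chr2:88034748-88034786 (minus) for mOR-EG, chr1:172957145-172957183 (plus) for MOR23, chr7:102742618-102742656 (minus) for Olfr78 and chr19:12394616-12394654 (plus) for MOR215-1.
P2: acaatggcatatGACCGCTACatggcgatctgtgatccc
mOR-EG: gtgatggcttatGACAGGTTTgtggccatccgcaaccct
MOR23: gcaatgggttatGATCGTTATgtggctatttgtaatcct
Olfr78: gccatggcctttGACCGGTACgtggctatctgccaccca
MOR215-1: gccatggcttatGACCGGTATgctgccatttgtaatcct
Of these 5, mOR-EG ends the motif with phenylalanine in place of tyrosine. Over whole coding sequences the 28 pairs of receptors had a median identity of 57.0%, from 52.2% upwards. M71 and M72 shared 96.7% of aligned bases, and the next closest pair, mOR-EG and MOR215-1, 60.9%.

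The second set of sequences is shown because M71 and M72 parted in these data although their genes are near copies. M72 and M71 lie next to each other on the minus strand of chromosome 9, 17.7 kb apart by RefSeq positions, from which all distances between genes given here are taken and whose gene ends differ from the GENCODE spans. Aligned over 930 columns, their coding sequences differed at 30 bases and at 1 gap, which fell after coding base 740 of M71, opposite base 741 of M72. The stretch around the gap is chr9:37730198-37730286 in M71 and chr9:37711493-37711582 in M72, and the capital marks the base that has no partner in M71 (its place within the short run of G is arbitrary).
M71: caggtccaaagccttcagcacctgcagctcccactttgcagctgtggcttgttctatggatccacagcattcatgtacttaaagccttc
M72: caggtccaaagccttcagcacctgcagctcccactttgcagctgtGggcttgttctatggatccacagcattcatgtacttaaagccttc
Within this window the missing base is the only difference. The coding sequence of M71 was 929 bases long, which is not a multiple of the codon length, and its first in-frame stop came at codon 259. In M72 the stop is codon 310. GENCODE lists M71 as a polymorphic pseudogene, a gene whose reading frame is broken in the reference strain and intact in others, and RefSeq lists it as a transcribed pseudogene. In GENCODE the M71 gene spans chr9:37729977-37731104 and the M72 gene chr9:37708964-37716250. P2 spans chr7:107093220-107099808, I7 chr7:106995399-107006072, Olfr78 chr7:102738511-102759471, mOR-EG chr2:88032288-88037699, MOR23 chr1:172950409-172958357 and MOR215-1 chr19:12387279-12401584. The other 7 receptors are annotated as protein coding, with open frames of 310 to 328 codons including the stop.

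M71 was close to absent from these libraries, whereas M72 was among the more abundant receptors. In the authors' deposited table the mean normalized count of M71 was 0.586, and that of M72 was 86.3. A mean this low could be resolved into whole reads, and it equalled 6 reads in all, spread over 3 of the 10 libraries with at most 3 reads in any of them. The other 7 libraries held none, which allows up to 3 reads in each. Against about 175 M assigned reads summed over the libraries, 6 reads are 0.0342 CPM (exact Poisson 95% limits of 2.20 to 13.1 reads). Per kb of coding sequence M72 stood at 92.7 and M71 at 0.631, a ratio of 147 with limits of 67.6 to 401 that cover the counting of the M71 reads only. Per kb of the longest GENCODE transcript, 3492 bases for M72 and 1128 for M71, they stood at 24.7 and 0.520. The ratio is smaller on that scale, so its size depends on the length used.

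The closeness of the copies bears on these counts, and was measured in the annotated transcripts. Of the windows of 150 bases in the coding sequence of M71, the read length in the labels, 28 of 780 (3.6%) also occurred in M72 and none in another gene. Every other window of that length held at least 1 base that differs between the copies. With windows of 50 bases the share was 40.3%. The sources used here do not give how the authors' counting treated reads that fit both genes. No coding window of the other 6 receptors, at either length, occurred in a second annotated gene.

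**Figure D1:**
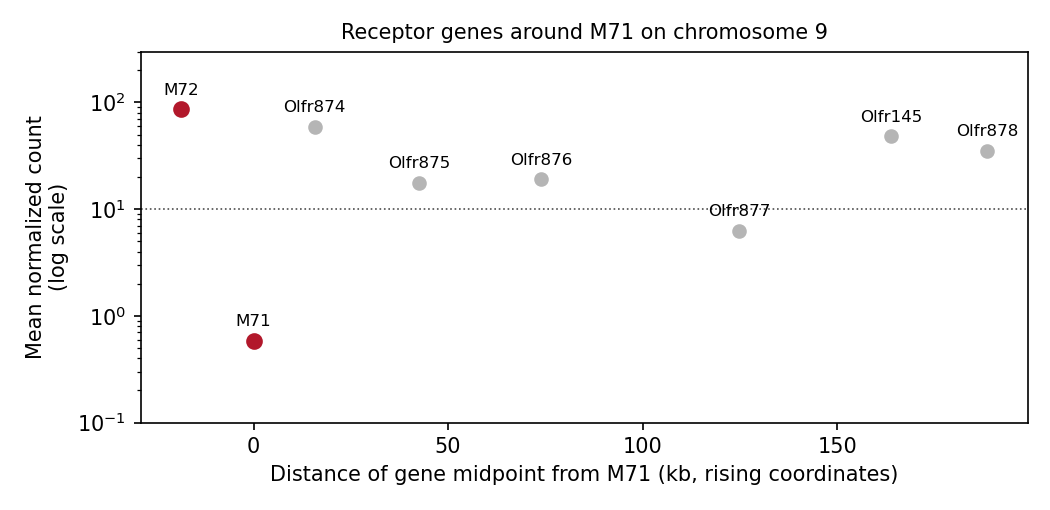
Mean normalized count over all 10 libraries (log axis) of the 8 receptor genes within 250 kb of M71, against the distance of each gene's midpoint from that of M71 in kb; red points are M71 and M72 and the dotted line is the authors' minimum of 10. M71 is at 0.586 between M72 at 86.3 and Olfr874 at 59.3.

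The genes around M71 were expressed. Within 250 kb there were 8 receptor genes, of which 6 had a mean above 10, and none was below M71. Olfr874, the neighbour on the far side from M72 and 14.2 kb from M71, had a mean normalized count of 59.3 by the authors' deposited table. Beyond it, the authors' deposited table gave Olfr875 a mean of 17.5, Olfr876 19.0, Olfr877 6.30, Olfr145 48.3 and Olfr878 35.4. M72 held the highest mean of the group. M71 and Olfr877 were given no adjusted p. None of the others was called between the genotypes, where 2.09% of all tested receptors were.

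Other receptors of M71's annotation class were low too. GENCODE lists 9 of the 1107 receptors in the table as polymorphic pseudogenes, and their means ran from 0 (Olfr908) through a median of 0.586, which is M71 itself, to 10.5 (Olfr192). In the authors' deposited table Olfr663 had a mean of 0.190, Olfr1010 0.447, Olfr197 0.487, Olfr936 1.29, Olfr225 2.07 and Olfr915 2.92. Thus 1 of 9 exceeded 10, whereas 810 of 1087 protein-coding receptors (74.5%) did, with a median of 26.7. This grouping was looked at after the value of M71 was seen, and no test was made of it. Low levels were not limited to that class, since 68 protein-coding receptors had a mean below that of M71.

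**Figure D2:**
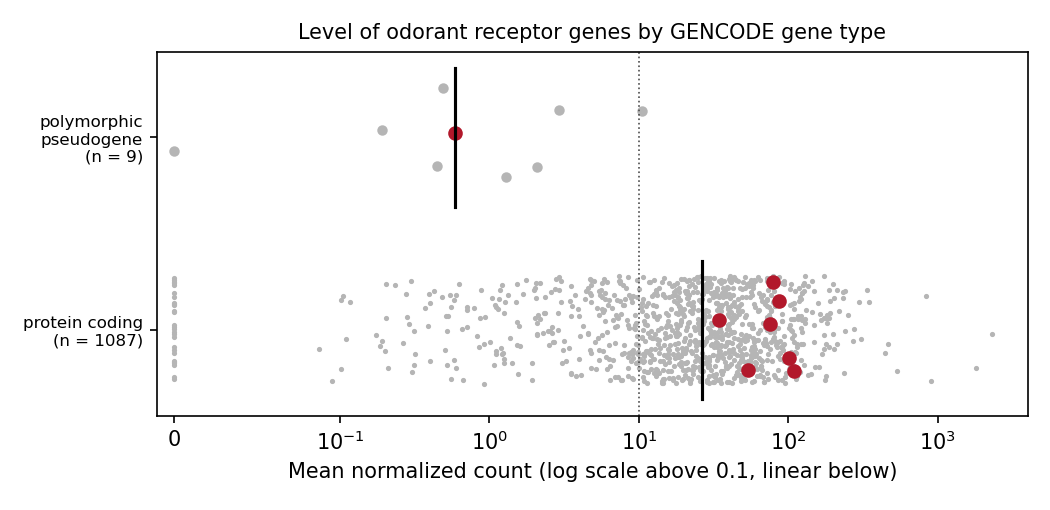
Mean normalized count over all libraries of each odorant receptor gene (log axis above 0.1, linear below), split by GENCODE gene type; the black bar is the median, red points are the model receptors, and height within a class is random. The 9 polymorphic pseudogenes have a median of 0.586 and the 1087 protein-coding receptors one of 26.7.

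The 7 other model receptors were all well detected. Their mean normalized counts by the authors' deposited table were 109 for P2, 100.7 for Olfr78, 86.3 for M72, 79.2 for mOR-EG, 75.2 for MOR23, 53.8 for MOR215-1 and 34.6 for I7. Of the 8 genes, 6 lay above the median of the 812 tested receptors, which was 38.0, and I7 and M71 lay below it. In rank among all 1107 receptors P2 was number 98, Olfr78 117, M72 140, mOR-EG 164, MOR23 176, MOR215-1 281, I7 446 and M71 1026. The most abundant receptor was Olfr536, with a mean of 2317 by the authors' deposited table. Together the 8 genes held 1.05% of all odorant receptor counts, and the receptors as a family 0.296% of all counts.

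**Figure D3:**
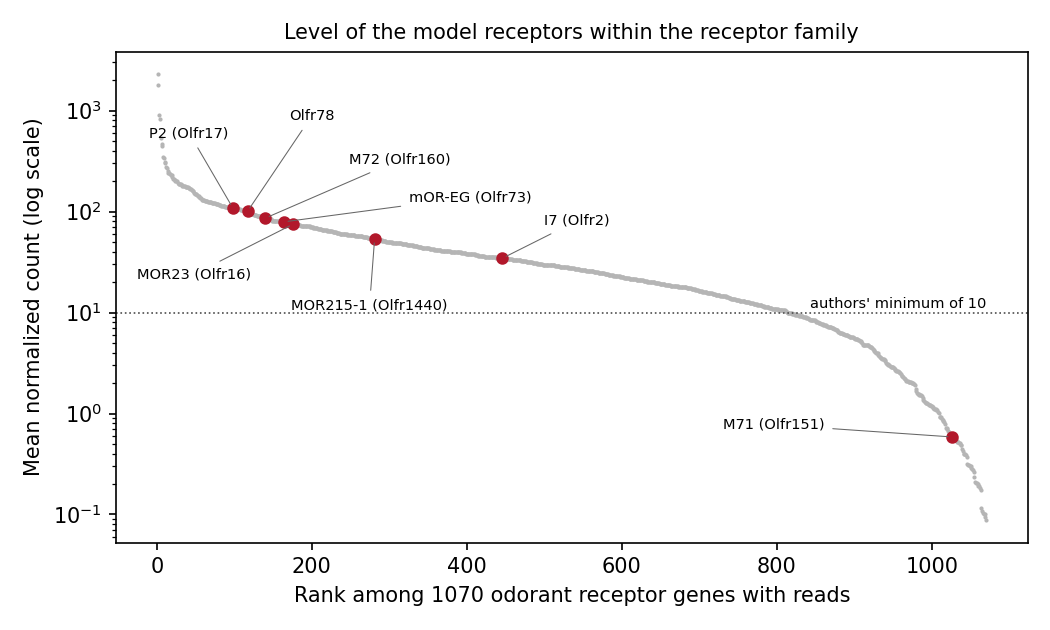
Mean normalized count over all libraries (log axis) of the 1070 odorant receptor genes with any reads, ordered by rank; red points are the 8 model receptors and the dotted line is the authors' minimum of 10. P2 ranks 98th, I7 446th and M71 1026th.

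Levels of different genes are compared per kb, and the order depended on the length used. With the longest GENCODE transcript, P2 stood at 29.7 per kb, MOR23 at 27.97, mOR-EG at 25.98, M72 at 24.7 and Olfr78 at 21.4. The 95% intervals of neighbours in this order overlapped, from 26.01 to 33.3 for P2 and from 18.6 to 24.3 for Olfr78, so P2 and Olfr78 at its ends did not. MOR215-1 at 7.09 per kb and I7 at 5.60 formed a lower pair whose intervals overlapped each other. Per kb of coding sequence the order was P2 at 115, Olfr78 at 105, M72 at 92.7, mOR-EG at 84.1 and MOR23 at 80.9, again with overlapping neighbours, followed by MOR215-1 at 56.7 and I7 at 35.1, each apart from the one above it. P2 was highest and I7 lowest of the 7 on both scales. The transcript models differ widely, from 2690 bases for MOR23 to 7588 for MOR215-1, with 1128 for M71, and which annotation the authors counted on is not given in the sources used here. These intervals rest on the spread between libraries implied by the authors' errors.

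The comparison between genotypes asks whether the human alleles differ in their effect on expression in this tissue. Sex-linked genes also separated the groups, with log2 fold changes of 6.41 for Xist and -3.50 for Ddx3y by the authors' deposited table. Effects of genotype and of sex therefore cannot be told apart here. None of the 7 model receptors tested passed an adjusted p under 0.05 in the authors' DESeq2 test, where 125 of 16050 genes did (0.779%). M71 had too few reads to be given an adjusted p. All 7 tested folds were positive, that is higher in Apoe4, although I7 stood at -0.064 with the trend over gene length removed. Of the 7, 1 had an unadjusted p under 0.05, a threshold that 10.3% of all tested genes passed. Among the 812 tested receptors 42.4% had a positive fold, 17 were called (2.09%), 5 higher and 12 lower, and with folds taken relative to mature neuron markers 8 were called higher and 8 lower. Of the 812, 105 had an unadjusted p under 0.05, 25 of them higher and 80 lower. The median deposited log2 fold change was 0.14 over the 7 receptors, -0.02 over tested receptors and 0.00 over all tested genes.

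**Figure D4:**
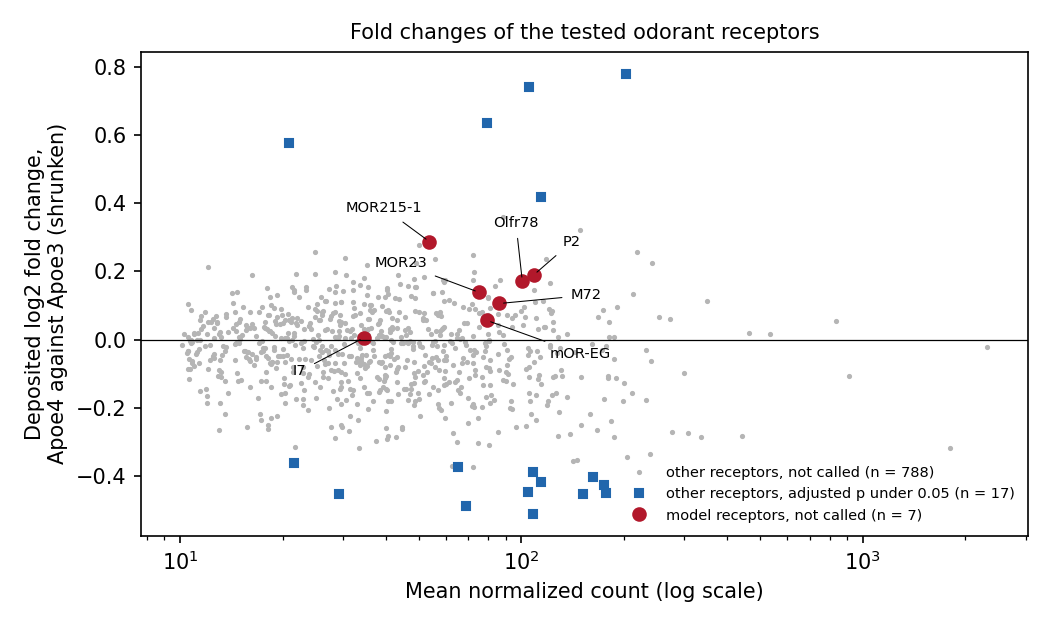
Deposited (shrunken) log2 fold change of Apoe4 against Apoe3 for the 812 tested odorant receptors against their mean normalized count (log axis); red points are the 7 tested model receptors and blue squares the 17 called receptors. The model receptors lie between 0.01 (I7) and 0.29 (MOR215-1), below the 5 receptors called higher.

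The deposited folds are shrunken towards 0 and are therefore also given with the shrinkage undone. Undoing it has 2 solutions, and the choice between them is described under the processing. With that choice the model receptors needed a rise of 1.58-fold (P2) to 1.93-fold (I7) to be called. These needed folds hold the error of each receptor fixed and take the largest unadjusted p that was called as the limit. Under those terms a smaller measured rise would not have been called. Counting of reads made up 22.3% to 37.0% of the squared error of these folds. The rest was the spread between libraries implied by the authors' errors, equal to a coefficient of variation of 17.4% for P2 to 23.1% for I7. The median was 26.7% over those tested receptors whose derived spread was above 0. These shares and spreads rest on the same choice.

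MOR215-1, the muscone receptor, had the largest fold of the 7 receptors tested. Its log2 fold change was 0.29 (SE 0.11) by the authors' deposited table, with an unadjusted p of 0.00629 and an adjusted p of 0.251, so it was not called. Undone, the fold was 1.52 with a 95% interval of 1.13 to 2.06, which corresponds to mean counts of 40.9 in Apoe3 and 62.4 in Apoe4. The receptor gene before it on chromosome 19, Olfr1437 at 69.2 kb, had a negative log2 fold change of -0.26 (SE 0.08, adjusted p = 0.105) by the authors' deposited table, and was not called either. The neighbour on the other side, Olfr1441 at 27.1 kb, was marked low with a mean of 5.63 by the authors' deposited table. The receptor with the closest coding sequence, Olfr1434 (69.2% identity), had a mean of 10.96 and a log2 fold change of 0.02 (adjusted p = 0.958) by the authors' deposited table.

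P2 and I7 sit in one cluster on chromosome 7, and neither was called. P2 had a log2 fold change of 0.19 (SE 0.10, adjusted p = 0.525) by the authors' deposited table. With shrinkage undone this was 1.26-fold, with an interval of 0.982 to 1.63, or mean counts of 93.9 in Apoe3 and 119 in Apoe4. For I7, the authors' deposited table gave 0.01 (SE 0.10, adjusted p = 0.993), which undone is 1.01-fold (0.703 to 1.45), with implied means of 34.4 and 34.7. The difference between these folds was not tested, and their intervals overlapped. P2's closest relative by coding sequence was also its neighbour, Olfr714 (73.3% identity, 22.7 kb away), which had a mean of 2.89 by the authors' deposited table. Olfr715, on the other side, had a mean of 14.6 and a log2 fold change of 0.04 (adjusted p = 0.894) by the authors' deposited table. I7's closest relative, Olfr524 (65.6% identity), had a mean of 33.5 and stood at -0.32 (adjusted p = 0.136) by the authors' deposited table. Beside I7, Olfr711 had a mean of 93.9 and stood at -0.20 (adjusted p = 0.488), and Olfr713 a mean of 11.4 and -0.03 (adjusted p = 0.921) by the authors' deposited table.

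Olfr78, the class I receptor, had a log2 fold change of 0.17 (SE 0.11, adjusted p = 0.583) by the authors' deposited table. Undone, this was 1.26-fold (0.954 to 1.65), with implied means of 87.2 in Apoe3 and 110 in Apoe4. In GENCODE its exons share 926 of 6033 bases with Olfr560 on the same strand, so reads there could have been split or dropped by the authors' counting. Olfr560 had a mean of 48.8 and a fold in the same direction, 0.15 (SE 0.10, adjusted p = 0.611), by the authors' deposited table. Olfr559, the neighbour on the other side, was marked low with a mean of 8.54 by the authors' deposited table. The closest coding sequence was that of Olfr558 (63.4% identity), with a mean of 57.5 and a log2 fold change of -0.09 (adjusted p = 0.820) by the authors' deposited table.

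MOR23, M72 and mOR-EG had folds between those of I7 and P2. MOR23 stood at 0.14 (SE 0.11, adjusted p = 0.689) by the authors' deposited table, or 1.23-fold (0.905 to 1.67) undone, with implied means of 66.2 in Apoe3 and 81.3 in Apoe4. Its neighbour Olfr1408, 172 kb away, had a mean of 58.8 and stood at 0.18 (adjusted p = 0.549), and its closest relative Olfr418 (72.3% identity) had a mean of 26.6 and stood at 0.11 (adjusted p = 0.695) by the authors' deposited table. M72 was at 0.11 (SE 0.11, adjusted p = 0.771) by the authors' deposited table, or 1.15-fold (0.879 to 1.497), with implied means of 79.3 and 90.9. The authors' deposited table gave mOR-EG 0.06 (SE 0.11, adjusted p = 0.894), or 1.08-fold undone (0.818 to 1.42), with implied means of 75.6 and 81.6. Its closest relative, Olfr74 (76.9% identity), had a mean of 0.866 by the authors' deposited table. The genes on either side of mOR-EG, Olfr1161 and Olfr1162, stood at 0.05 and 0.08 (adjusted p = 0.839 and 0.830) by the authors' deposited table.

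**Figure D5:**
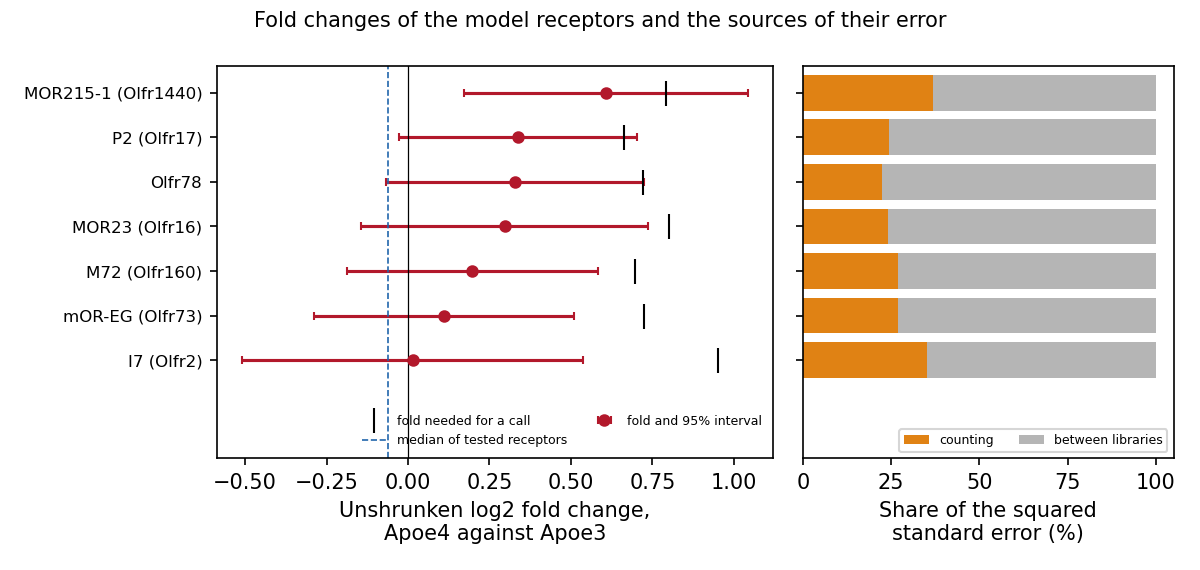
Left, log2 fold change of Apoe4 against Apoe3 with the shrinkage undone for the 7 tested model receptors, with 95% intervals; black ticks mark the fold each would need to be called and the dashed line the median of tested receptors (-0.06). Right, share of the squared error of each fold from read counting and from spread between libraries. MOR215-1 is the single receptor whose interval lies above 0, and its fold of 1.52 is below the 1.73 it would need.

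M71 had a deposited log2 fold change of 0.01 (SE 0.02, unadjusted p = 0.533) by the authors' deposited table. With 6 reads in all no difference was detectable, and no fold with its shrinkage undone is given. On the far sides of M72 and MOR23 the next receptors, Olfr18 and Olfr12, lay 17375 and 80336 kb away, and by the authors' deposited table stood at -0.08 (adjusted p = 0.782) and 0.02 (adjusted p = 0.974). Over the 14 different receptors that neighbour the 8 genes, 11 were tested, none was called, and 7 of the 11 had positive folds. Of all tested receptors 2.09% were called and 42.4% had a positive fold, as did 51.1% of all tested genes. With 11 genes these counts do not set the neighbours apart.

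Receptors act through a shared cascade, in which the G protein of Gnal activates the cyclase Adcy3 and cAMP opens the channel of Cnga2, Cnga4 and Cngb1. Of 20 tested genes of this cascade none was called in the authors' DESeq2 test and 3 had an unadjusted p under 0.05, with a median log2 fold change of -0.01. Those 3 were the receptor kinase gene Adrbk2 at 0.15 (adjusted p = 0.425), Stoml3, a membrane protein of the cilia, at -0.13 (adjusted p = 0.431), and the calcium exchanger Slc24a4 at 0.14 (adjusted p = 0.469) by the authors' deposited table. Ano2, the chloride channel that amplifies the response, was at -0.11 (adjusted p = 0.553) by the authors' deposited table.

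None of 9 genes of receptor folding and transport to the cell surface, general chaperones included, was called. None had an unadjusted p under 0.05 (median log2 fold change 0.08). Calr and Canx, chaperones of the endoplasmic reticulum, stood at 0.10 and 0.11 (adjusted p = 0.534 and 0.580) by the authors' deposited table. Hspa1l and Hspa5, heat shock proteins, stood at 0.17 and 0.10 (adjusted p = 0.557 and 0.611) by the authors' deposited table. Among 26 genes tied to receptor choice (median 0.03) none was called, and 1 had an unadjusted p under 0.05, against 10.3% of all tested genes. That 1 gene was Tshz1, a zinc finger transcription factor, at 0.23 (adjusted p = 0.111) by the authors' deposited table. The transcription factors Nfix, Nfia and Ctcf stood at 0.10, 0.11 and 0.08 (adjusted p = 0.576, 0.643 and 0.689) by the authors' deposited table. Of 16 genes of axon guidance, identity and zone, only some of which receptor signalling helps to set, 1 was called. Of all tested genes, 0.779% were. Pcdh10, an adhesion protein, fell by 0.36 on the log2 scale (adjusted p = 0.0473) by the authors' deposited table, and the median of these 16 genes was 0.00. The guidance receptors Nrp2 and Robo2 stood at 0.13 and 0.16 (adjusted p = 0.487 and 0.543), and Nqo1, an enzyme of the dorsal zone of the epithelium, at 0.15 (adjusted p = 0.643) by the authors' deposited table. The call of Pcdh10 lay at the edge of the threshold and was lost in 4 of the 6 alternatives tried for it, with adjusted p from 0.0507 to 0.0935.

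Facts of the libraries that touch these values are few. Approximate depths, the size factor of a library times the summed means, ran from 14.9 to 20.1 M assigned reads per library. Mature neuron markers were present, among them Omp with a mean of 113676 by the authors' deposited table. These markers stood at a median of -0.05 on the log2 scale, with none of 20 tested genes called and 3 at an unadjusted p under 0.05. For these and the following marker counts, the shares over all tested genes were 0.779% called and 10.3% at an unadjusted p under 0.05. Of 14 immature neuron markers, with a median of 0.06, 1 was called higher, Dpysl3 at 0.24 (adjusted p = 0.0272) by the authors' deposited table. An unadjusted p under 0.05 was reached by 5 of the 14. Of these, 3 were negative by the authors' deposited table, Trib3 at -0.30, Ablim1 at -0.21 and Ddit3 at -0.20. Dpysl3 and Elavl3, the latter at 0.17, were positive, and of all 14 markers 9 had a positive fold. Of 8 precursor markers, with a median of 0.05, 1 was called higher, Sox4 at 0.35 (adjusted p = 3.98e-04) by the authors' deposited table, and 2 had an unadjusted p under 0.05. The 9 markers of sustentacular cells, the supporting cells of the epithelium, had a median of -0.12, and 1 of the 9 was positive. Of these 9, Cbr2 was called lower at -0.26 (adjusted p = 0.0421) by the authors' deposited table, and 5 had an unadjusted p under 0.05, Cbr2, Hes1, Krt18, Cyp2g1 and Muc2, all negative. Of 6 erythroid markers listed only 2 were given an adjusted p. Both were called lower, Alas2 at -0.46 and Slc4a1 at -0.27 by the authors' deposited table. None of 5 horizontal basal and 4 respiratory ciliated markers was called or had an unadjusted p under 0.05. The part of these markers in the receptor values was not tested. Sex-linked genes separated the groups by the authors' deposited table, with Xist at 6.41 (given no p-value) and Ddx3y at -3.50, while the labels give no sex. A difference in sex cannot be told apart from genotype here, and its part in the receptor values was not tested. Mouse Apoe stood at -0.16 (adjusted p = 0.579) by the authors' deposited table, which cannot check labels that name human alleles.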

How the data were processed

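Poly(A) RNA of 10 samples was sequenced as paired reads of 150 bases, per the labels' protocols. The submitters' processing notes name STAR, featureCounts, DESeq2 and GRCm38, with no versions or settings. The table deposited by the authors holds per gene a mean signal (read count divided by a size factor, averaged over all libraries), a log2 fold change with its log2 standard error, a score that equals the Wald statistic, a p-value and an adjusted p-value. Adjusted p-values matched Benjamini-Hochberg over 16050 genes; 8314 genes with means under 10 were marked low by the authors.

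Without values per library, the planned count test gave way to the authors' own test. The direction of folds was read from genes with 1 read in 1 library, whose means took 10 levels, 6 with positive folds (Apoe4 has 6 libraries) and 4 with negative. Those levels also give the size factors; all sets of up to 8 reads were searched for M71, and 1 set matched its mean within 1e-09. The normal prior was undone from the ratio of each error to its ceiling (0.105). That relation has 2 solutions, chosen by whether the mean lies above 76.7, where the error peaks. The other solution would move a log2 fold by at most 0.09. It would move the undone standard error from 0.267 to 0.166 for I7 and from 0.186 to 0.238 for P2. MOR23 and mOR-EG, with means of 75.2 and 79.2, lie close to that cut. The needed folds, the intervals of folds and levels, the spreads between libraries and the counting shares rest on this choice. The algebra of this step was tested on simulated counts with a known spread; the choice between the solutions was not. Intervals are at 95%.

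Coding sequences came from GENCODE vM21 (GRCm38) and were aligned globally with Biopython 1.88 (match 2, mismatch -3, gap opening -7, extension -2). Gene neighbours came from RefSeq GRCm38.p6. The RefSeq start windows of 5 of the receptors lie 2562 to 6986 bases from the GENCODE starts, so no promoter is shown. Protein sequences were not used here, so relatives were ranked by coding sequence. The loop stretch of the other 3 receptors is not reported here. The length trend was a lowess curve with a fraction of 0.3 (statsmodels 0.14.6).

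Named genes are the 8 receptors, their nearest receptor neighbours and closest relative, and, of each of the 4 pathway lists, called genes and up to 4 others with the smallest p. Of cell type markers called genes are named. Omp, Xist, Ddx3y and Apoe are named as checks of the libraries. The receptors and lists were chosen with earlier results of these data known. Genes of the M71 cluster, the polymorphic pseudogenes and uncalled immature and sustentacular markers were named after values were seen. The authors' p-values set each fold against an error that holds read counting and the spread between these samples, which the labels call biological replicates.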

Additional observations from a re-analysis of the deposited data

How the results depend on the processing

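No paired analysis was possible because the deposited table holds no values per library, and for the same reason another count tool and leaving out each library were not run. None of the 7 tested receptors was called without the filter on the mean, at a mean of at least 50 (where I7 is not tested), without X and Y genes, with folds taken relative to mature neuron markers or to all odorant receptors, or with the length trend removed. The lowest adjusted p over these settings was that of MOR215-1, 0.0733 relative to mature neuron markers, and the highest of it was 0.654. I7 went from a log2 fold change of 0.0056 to -0.064 with the length trend removed, and the other 6 stayed positive there. No other of these settings could turn a positive fold negative. The choices of genes leave folds unchanged, and both scalings raise every fold by a constant. Relative to mature neuron markers 8 receptors of the family were called higher in place of 5 and 8 lower in place of 12. Under the same scaling 1 gene of the receptor choice list, Tshz1, was called higher (adjusted p = 0.0140) in place of 0. Pcdh10, the 1 gene of the axon list called lower, gave 0 calls without the filter, without X and Y genes and under both scalings. Per-kb levels moved with the length used, as given above. For M71, 6 reads limit any comparison.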
